A study of Ovis aries with 32 samples.

Results

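Nuclear genes for respiratory complex I were examined in 4 tissues of Tan sheep fed with or without succinic acid. The members are all genes whose name begins with NDUFA, NDUFB, NDUFC, NDUFS, NDUFV or NDUFAF, which gave 37 genes on 38 of the 30722 rows of the table. NDUFA5 stood on 2 rows, and the row of higher mean was used, so its values are uncertain if reads were split between the rows. Of the 37 genes, 28 encode structural subunits, 2 are NDUFA4 and its relative NDUFA4L2, and 7 are assembly factors of the NDUFAF series. A further 10 genes of these families had no match among the gene names, and so no values here: NDUFS6, NDUFA3, NDUFA10, NDUFA11, NDUFA13, NDUFC1, NDUFS5, NDUFB1, NDUFB9 and NDUFAF4.

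Complex I oxidises NADH at the tip of a hydrophilic arm, passes the electrons along iron-sulfur clusters to ubiquinone, and pumps protons through a membrane arm. The N module binds NADH, the Q module reduces ubiquinone, and the proximal and distal parts of the membrane arm hold the pumping subunits, whose core is encoded by mitochondrial DNA. Assembly factors build the complex but are not part of the finished enzyme. Succinate enters the same chain one step away, through complex II, which also reduces ubiquinone.

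Male sheep aged 3 months received either a basal pellet with succinic acid at 1% of dry matter (SA) or the basal pellet alone (CON). The study held 24 sheep, 12 on each diet, and feeding lasted 60 days after 10 days of adaptation. RNA from 4 sheep of each diet was sequenced from the liver, the tail fat and tissue labelled hypothalamus and pituitary gland, giving 8 groups of 4 libraries (Tan sheep are a fat-tailed Chinese breed). The labels do not tie libraries of different tissues to individual sheep. Values are in TPM, a share of each library's transcripts scaled for transcript length, so that levels of different genes can be compared.

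The libraries differed in composition. Mitochondrially encoded transcripts took 52.5 to 71.0% of the TPM in SA livers, against 20.2 to 27.9% in CON livers, and 25.7 to 50.7% in SA tail fat, against 22.6 to 70.8% in CON tail fat. Summed hepatocyte markers reached 7852 to 31384 TPM in SA livers, against 95121 to 108794 TPM in CON livers, and 6 of the 8 markers fell. Endothelial markers fell too in SA livers, 3 of 4, with sums of 5.3 to 11.6 TPM against 45.0 to 67.8 TPM in CON livers. Macrophage markers fell in 3 of 4 tested, and pericyte and smooth muscle markers in 3 of 5. These are counts of markers called lower in the liver test below, where 59.1% of all genes were called lower. CCDC152, which in humans overlaps SELENOP on the opposite strand, was at 168 to 842 TPM in SA livers and at 0 in all 4 CON livers. Among tail fat libraries, 6 held 57.8 to 186 TPM of it, while SA library 1 held 0.07 and CON library 2 held 0.12, and these 2 also stand apart in the values below. In liver this split coincides with diet, so a difference in how libraries were made or reads were assigned to strands and a diet effect cannot be told apart there. The same split runs across the diets in tail fat. SA library 1 and CON library 2 also held 39.9 and 95.5 TPM of skeletal muscle markers summed, against 1.03 to 13.45 TPM in the other 6 tail fat libraries. The libraries labelled pituitary held almost no hormone transcripts (CGA and FSHB at 0 in all 8), and those labelled hypothalamus had 5.35 to 14.2 TPM of hypothalamic peptide transcripts summed, beside 1992 to 3633 TPM of striatal markers. Both sets had high neuronal markers, and they are called brain libraries here. The names hypothalamus and pituitary, in the text and figures, stand for the labels only and not for a tissue shown by markers. The part of these marker levels in the results below was not tested. In bulk tissue, fewer cells of a type and less RNA per cell cannot be told apart.

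On the control diet, the highest single members belonged to the distal membrane arm. NDUFB4, an accessory subunit of that arm, was the highest member in hypothalamus at 285 ± 30.7 TPM and in liver at 156.0 ± 5.4 TPM (SD, n = 4 each). NDUFB8, of the same arm, led in pituitary at 367 ± 27.2 TPM and in tail fat at 235 ± 84.8 TPM. In liver, NDUFB8 at 139.8 ± 5.0 TPM stood close behind NDUFB4, and in tail fat NDUFB4 at 219 ± 143 TPM lay within the spread of NDUFB8. The assembly factors were far lower. Their median gene averaged 9.93 TPM in hypothalamus, 11.3 TPM in pituitary, 7.34 TPM in liver and 4.94 TPM in tail fat, while the median distal arm subunit averaged 93.2, 113, 71.2 and 113 TPM in the same tissues. NDUFAF8, a partner of the assembly factor NDUFAF5, was the highest assembly factor in each of the 4 tissues and reached 64.5 ± 25.6 TPM in tail fat. The lowest member was NDUFAF3 in hypothalamus and pituitary, at 4.12 and 4.52 TPM, NDUFA4L2 in liver and NDUFAF2 in tail fat, at 2.09 TPM.

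**Figure D1:**
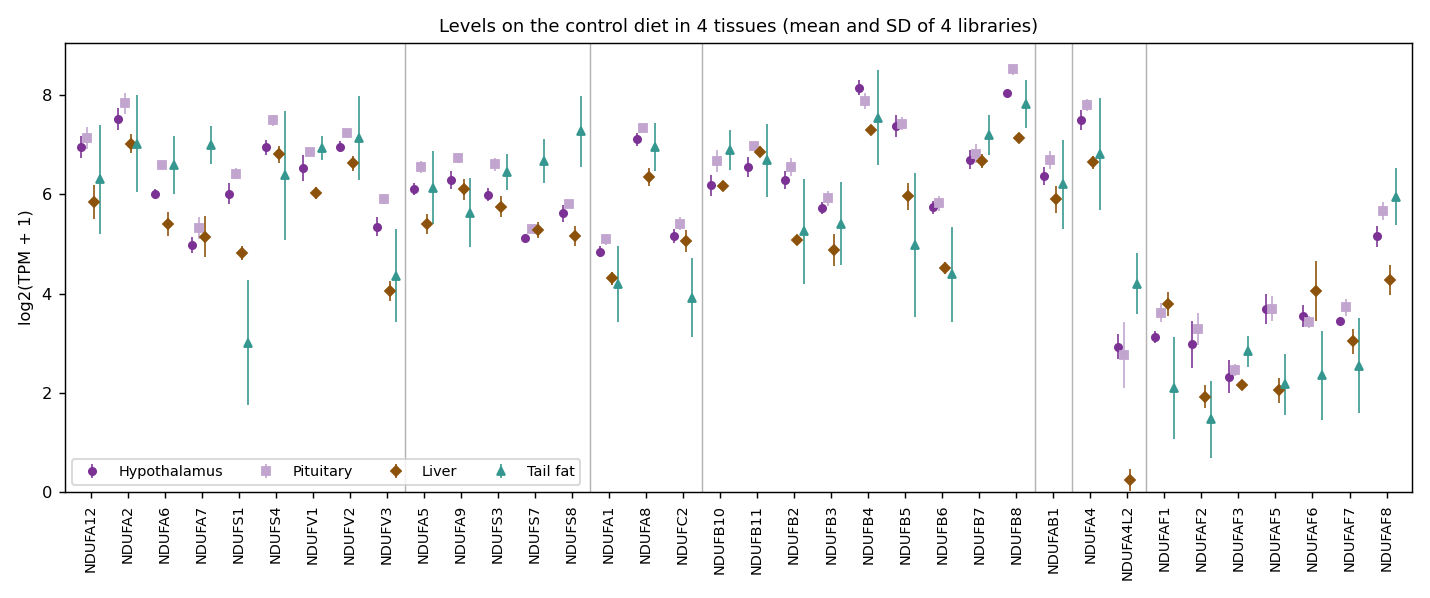
Levels of members on the control diet as log2(TPM + 1), by tissue, ordered by role with grey lines between roles. Points are means and bars are SDs of 4 libraries. NDUFA4L2 in liver averaged 0.185 TPM, and NDUFB4 in tail fat at 219 ± 143 TPM is among the members with wide bars there.

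Brain libraries held more of most members than the mean of liver and tail fat, as they did of most genes. Tail fat alone was not clearly lower. The subunit sums were 2464 to 2894 TPM in CON hypothalamus and 3106 to 3529 TPM in CON pituitary. They were 1741 to 1927 TPM in CON liver, below every CON brain library, and 1582 to 4318 TPM in CON tail fat, with overlap. Of 37 members, 21 were higher and 3 lower in the mean of hypothalamus and pituitary than in the mean of liver and tail fat, in a limma fit of log2(TPM + 1) over the 16 CON libraries (Benjamini-Hochberg adjusted p under 0.05). Of all 15929 genes tested, 79.1% were called, 61.8% higher and 17.4% lower. The members' median difference was 0.62 on the log2 scale, and that of all genes was 0.85. After quantile normalization, 13 members were called higher and 12 lower, where 36.6% of all genes were higher and 41% lower. The median was then -0.041 for the members and -0.10 for all genes, so the direction of the group as a whole depended on the scaling.

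Single members differed by more. NDUFS1, the largest core subunit, which carries iron-sulfur clusters of the N module, had 63.8, 77.7, 60.9 and 54.8 TPM in CON hypothalamus and 83.6, 76.9, 86.6 and 92.4 TPM in CON pituitary. It had 27.4, 26.9, 30.8 and 24.2 TPM in CON liver and 4.10, 25.8, 2.62 and 7.47 TPM in CON tail fat. Every brain library lay above every liver and tail fat library, and the difference was 2.31 ± 0.30 (SE; adjusted p = 1.47e-06). NDUFB5 of the distal arm (1.93 ± 0.34), the assembly factors NDUFAF5 (1.59 ± 0.19) and NDUFAF2 (1.44 ± 0.23), and NDUFV3 (1.42 ± 0.24), an accessory subunit of the N module, were the other 4 largest. NDUFAF5 modifies NDUFS7 during assembly, and NDUFAF2 is a relative of the subunit NDUFA12 that acts before the N module is complete. The 3 members lower in brain than in the mean of liver and tail fat were NDUFA7 (-0.92 ± 0.18), NDUFS7 (-0.77 ± 0.16) and NDUFS8 (-0.51 ± 0.20, adjusted p = 0.0298). NDUFS8 lost its call in 6 of 16 fits without single libraries. In CON libraries NDUFS8 was higher in brain (41.05 to 56.7 TPM) than in liver (28.3 to 39.3 TPM). NDUFS7 overlapped, at 31.4 to 40.9 TPM in brain and 31.9 to 41.7 TPM in liver. NDUFA7 did too, at 27.2 to 44.7 TPM and 22.5 to 43.4 TPM. The 3 calls therefore rest mainly on tail fat. NDUFS7 and NDUFS8 are core subunits that hold the last iron-sulfur clusters before ubiquinone.

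The same 3 genes were high in tail fat relative to liver. NDUFS8 had 37.4, 35.7, 39.3 and 28.3 TPM in CON liver and 222, 81.6, 129.8 and 237 TPM in CON tail fat, with no overlap (log2 difference -2.11 ± 0.29, adjusted p = 1.01e-05). The CCDC152 split runs through this contrast as well. It was at 0 in CON livers, at most 0.08 TPM in CON brain, and 57.8 to 162 TPM in CON tail fat libraries 1, 3 and 4. For those libraries, a tissue difference and a difference in how libraries were made cannot be told apart. CON tail fat library 2, at 0.12 TPM, had the lowest NDUFS8 of that group. Between liver and tail fat on the control diet, 4 members were higher in liver and 13 lower, where 44.1% of all genes were called, 23.3% higher and 20.8% lower. The 4 higher in liver were NDUFS1 (1.81 ± 0.42), NDUFAF6 (1.71 ± 0.36), NDUFAF1 (1.69 ± 0.35) and NDUFC2 (1.14 ± 0.31). NDUFAF1 is part of a complex that assembles the membrane arm, and NDUFC2 belongs to the proximal arm. The largest deficits in liver were those of NDUFA4L2 (-3.97 ± 0.32), NDUFS8, NDUFA7 (-1.84 ± 0.25), NDUFAF8 (-1.68 ± 0.27) and NDUFS7 (-1.40 ± 0.23). By role, the Q module had 4 of 6 members lower in liver and none higher, the N module 3 of 9 lower and 1 higher, the distal arm 2 of 9 lower, and the proximal arm 1 of 3 lower and 1 higher. The median over the 37 members was -0.30 and turned to 0.10 without tail fat CON library 2. With mitochondrially encoded and ribosomal RNA removed before scaling, 27 members were lower in liver and 4 higher, where 40.6% of all genes were lower and 16.9% higher. The median on that scale was -1.04 for the members and -0.38 for all genes.

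NDUFA4 and NDUFA4L2 had different tissue patterns. NDUFA4 was first described as a complex I subunit and is now placed in cytochrome c oxidase, and NDUFA4L2 is known in human and mouse cells as a hypoxia-induced gene that lowers complex I activity. In CON animals NDUFA4 averaged 181 ± 25.1 TPM in hypothalamus, 223 ± 20.2 TPM in pituitary, 99.5 ± 8.9 TPM in liver and 144 ± 128 TPM in tail fat. NDUFA4L2 averaged 6.71 ± 1.40, 6.28 ± 2.66, 0.185 ± 0.187 and 18.7 ± 9.18 TPM in the same order. In liver it read 0.38, 0, 0.14 and 0.20 TPM on SA and 0.19, 0.44, 0.11 and 0 TPM on CON, all under the filter for a diet test there. In order of level, tail fat came first and liver last. Hypothalamus and pituitary between them did not differ beyond their spread (0.17 ± 0.32, adjusted p = 0.842). Brain against liver and tail fat gave 0.63 for NDUFA4L2 (adjusted p = 0.0168), a sign that turned to -0.42 under quantile normalization.

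Between hypothalamus and pituitary no member passed the test. The count was 0 of 37, where 13.1% of all genes were called, 4.48% higher and 8.63% lower, and 3 members and 3597 of 15929 genes had an unadjusted p under 0.05 by limma. Of the 37, 33 had the lower value in hypothalamus, with a median of -0.31 against -0.21 over all genes. The member nearest the threshold was NDUFS3, a core Q module subunit, at -0.61 ± 0.22 (adjusted p = 0.0844). NDUFA6 (-0.58 ± 0.26) and NDUFB8 (-0.48 ± 0.23) came next. In all 3, every CON hypothalamus library lay below every CON pituitary library, but this was not particular to them. NDUFA9 (64.9 to 88.3 against 98.0 to 115.7 TPM) and NDUFV3 (34.2 to 45.3 against 55.1 to 65.2 TPM), among other members, were separate too. The share of all genes separate in this way was not computed. NDUFS3 had 55.7 to 67.3 TPM against 84.8 to 104.6 TPM, and NDUFA6 59.2 to 69.4 TPM against 92.7 to 97.4 TPM. NDUFB8 had 252 to 271 TPM against 335 to 398 TPM. The errors rest on a spread shared by all 4 tissues, so the count of 0 does not show that the members did not differ. Among the 4 with a higher value in hypothalamus, NDUFB4 was at 0.28 ± 0.34. Without tail fat CON library 2, which enters only the shared spread, these 3 lower members passed, where 14.4% of all genes were called lower, and without tail fat CON library 3 NDUFS3 was the 1 member that passed, where the share was 10.5%.

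In liver, most complex I transcripts took a smaller share of the RNA on succinic acid. Of 36 members tested, 26 were lower in SA livers, 1 was higher and 9 were not called, in a limma fit over the 8 liver libraries. Among all 11582 genes tested there, 64.3% were called, 59.1% lower and 5.21% higher, against 75% of members. The members' median log2 difference was -1.14, and that of all genes was -0.83. Every SA library lay below every CON library for 25 of the 36 members and for 54.2% of all genes, and above every CON library for 1 member and 4.07% of all genes. Summed over the 28 subunits, SA livers had 881, 430, 1078 and 1046 TPM, against 1885, 1835, 1927 and 1741 TPM in CON livers. The mitochondrially encoded share, the hepatocyte and endothelial marker sums and CCDC152, given above, also did not overlap between these livers, and their part in the difference was not tested.

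**Figure D2:**
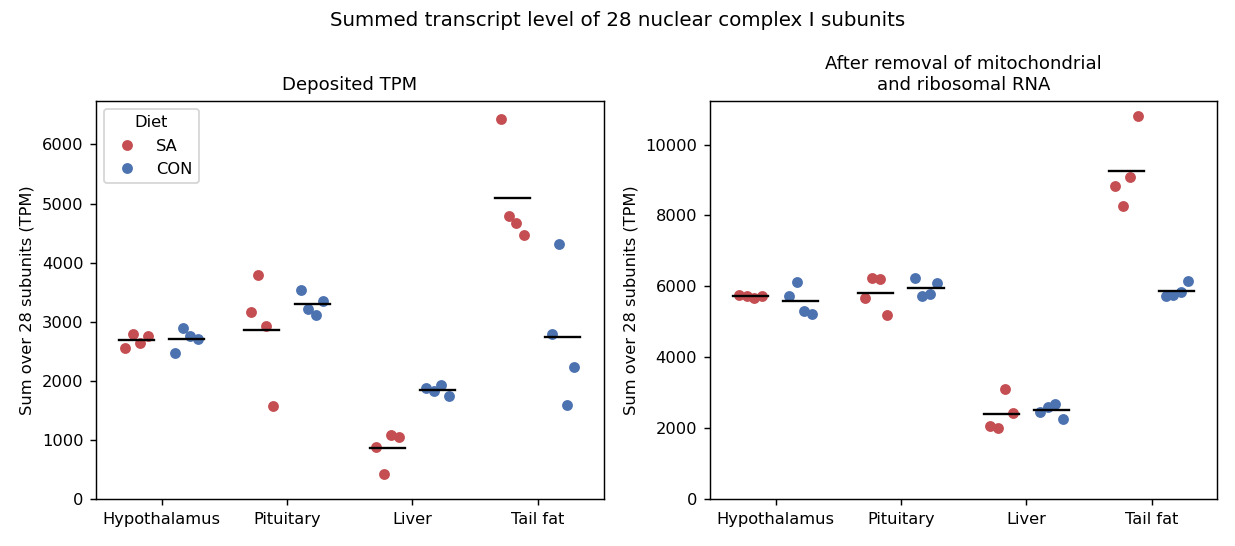
Sum of the TPM of 28 nuclear complex I subunits in each library by tissue and diet, as deposited (left) and after removal of mitochondrially encoded and ribosomal RNA and rescaling to the same total (right). Points are libraries and black lines are group means. The SA livers at 430 to 1078 TPM lie below the CON livers as deposited, and the 2 diets overlap in liver after removal.

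The liver difference was smaller on other scales. With mitochondrially encoded and ribosomal RNA removed, the subunit sums were 2048, 1994, 3104 and 2418 TPM in SA livers, against 2440, 2594, 2688 and 2262 TPM in CON livers, and the ranges overlapped. On that scale 10 members were lower in SA livers and 6 higher, where 12.6% of all genes were called lower and 15.9% higher. The median difference was -0.24 for the members and 0.03 for all genes. On that scale the diets were separate for 11 members with SA lower and 6 with SA higher, where 14% and 17.4% of all genes were separate in those directions. Quantile normalization gave 12 lower and 7 higher, where 21.1% of all genes were lower and 16.3% higher. All 10 members lower after removal, and all 12 after quantile normalization, were also lower in the deposited TPM. Both scalings raised the SA minus CON values, for NDUFA4 from -2.13 to -1.06 and -1.10, so this overlap is no separate support.

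The 10 members called lower on all 3 scales, which are not independent checks, include the most reduced ones. NDUFB5 of the distal arm (ENSOARG00020009071) had 14.02, 2.81, 8.42 and 9.40 TPM in SA livers, against 56.2, 68.5, 74.5 and 48.7 TPM in CON livers. The highest SA value was far under the lowest CON value, and the log2 difference was -2.84 ± 0.39 as deposited (adjusted p = 0.000235) and -1.87 after removal. NDUFA2, an accessory subunit of the N module with a thioredoxin-like fold, had 17.5, 17.8, 26.4 and 34.4 TPM in SA livers, against 130.4, 129.4, 109 and 151 TPM in CON livers. It fell by 2.43 on the log2 scale as deposited (SE 0.28, adjusted p = 0.000104) and by 1.36 after removal. The SA and CON ranges of NDUFA2 were again far apart.

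NDUFA9, which stabilises the junction of the 2 arms, fell by 2.27 on the log2 scale, the assembly factor NDUFAF1 by 2.25 and NDUFS4, an accessory N module subunit lost in a form of Leigh syndrome, by 2.23. NDUFAF1 had 1.54, 0.98, 2.60 and 2.92 TPM in SA livers, against 14.5, 11.1, 15.3 and 10.9 TPM in CON livers. NDUFA4 had 25.25, 15.1, 25 and 24.3 TPM in SA livers, against 99.6, 99.2, 111 and 88.8 TPM in CON livers, and its difference was -2.13 ± 0.24 (adjusted p = 0.000104). For NDUFAF1 and NDUFA4 alike, the SA and CON ranges were far apart. NDUFA1, NDUFB6 and NDUFB11, accessory subunits of the membrane arm, are also among the 10. NDUFAB1, the mitochondrial acyl carrier protein, which serves fatty acid synthesis as well as complex I, had 12.3, 13.9, 34.0 and 25.4 TPM in SA livers, against 47.0, 60.6, 74.2 and 56.1 TPM in CON livers. It fell by 1.53 as deposited (SE 0.34, adjusted p = 0.00319) and read -0.46 after removal (adjusted p = 0.345).

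NDUFS8 (ENSOARG00020014383) was the only one of the 36 members called higher in SA livers in the deposited TPM. It had 118, 51.4, 83.4 and 133 TPM in SA livers, against 37.4, 35.7, 39.3 and 28.3 TPM in CON livers, and the groups did not overlap. The log2 difference was 1.35 ± 0.32 (adjusted p = 0.00476), and 2.46 after removal of mitochondrially encoded and ribosomal RNA. Within the 28 subunits it held 11.4 ± 2.5% of the summed TPM in SA livers and 1.90 ± 0.19% in CON livers (SD, n = 4 each). Its median rank among the subunits was 1 in SA livers and 20.5 in CON livers. In each of the 4 brain groups its median rank was 23 or 23.5.

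Other nuclear core subunits did not move as one. NDUFS1 had 12.8, 5.06, 8.60 and 7.50 TPM in SA livers, against 27.4, 26.9, 30.8 and 24.2 TPM in CON livers (-1.63 ± 0.26, adjusted p = 0.000523). NDUFV2, a subunit of the NADH-binding tip with an iron-sulfur cluster, had 32.9, 19.0, 42.2 and 38.0 TPM in SA livers, against 106, 96.2, 106 and 84.2 TPM in CON livers (-1.59 ± 0.29, adjusted p = 0.00101). Both were separate between diets as deposited, and neither passed after removal (adjusted p = 0.0585 and 0.0972 for NDUFS1 and NDUFV2). NDUFV1, which binds NADH and the flavin, had 68.5, 27.9, 52.4 and 68.5 TPM in SA livers, against 64.9, 57.3, 65.8 and 69.5 TPM in CON livers. NDUFS3 had 42.4, 25.4, 79.0 and 54.4 TPM in SA livers, against 48.3, 53.2, 64.8 and 47.3 TPM in CON livers. NDUFS7 had 51.8, 21.5, 51.1 and 67.5 TPM in SA livers, against 41.7, 39.7, 38.5 and 31.9 TPM in CON livers. For these 3 the diets overlapped and no difference passed as deposited, with values of -0.32, -0.19 and 0.23. After removal NDUFV1 read 0.77, NDUFS3 0.91 and NDUFS7 1.32 higher in SA livers, and all 3 were called. SA library 2 was the lowest SA library for NDUFS8 and for each of these core subunits, and without it NDUFS7 was called higher in the deposited TPM as well, at 0.57.

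**Figure D3:**
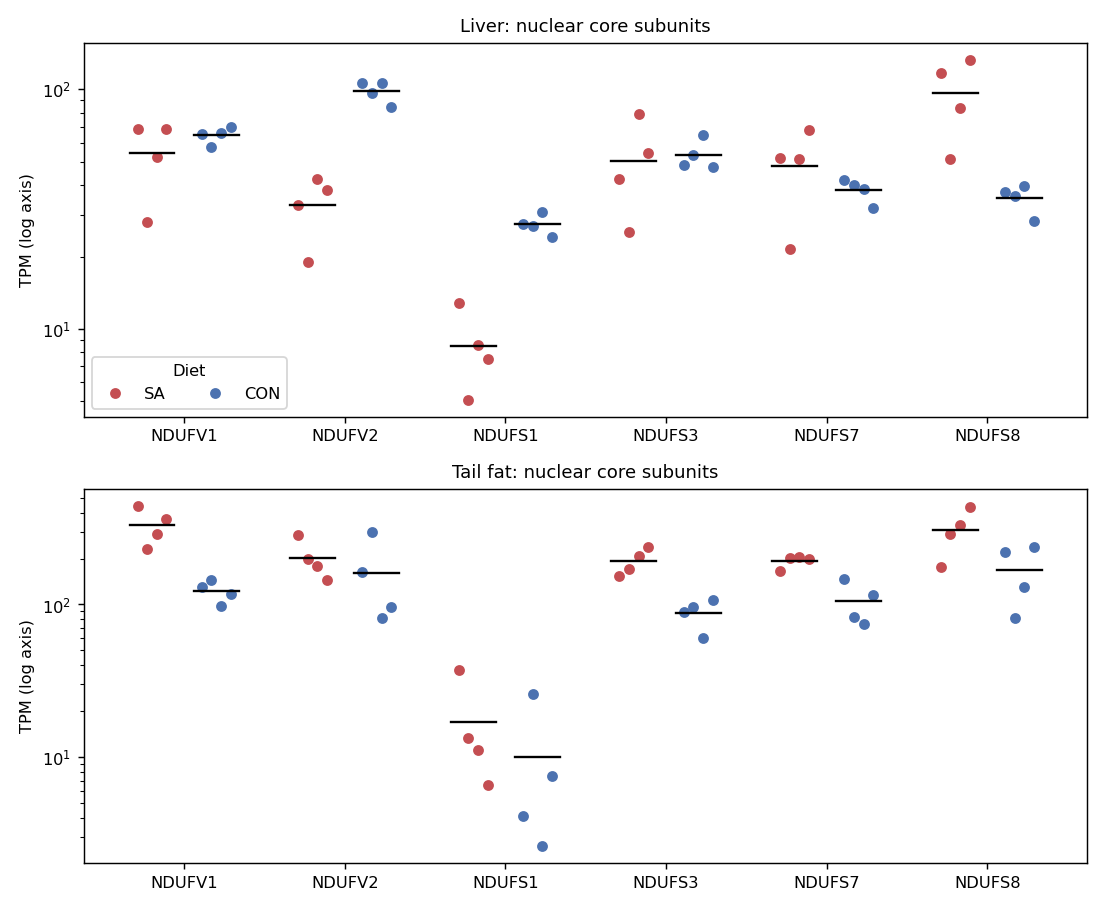
TPM of nuclear core subunits in liver (top) and tail fat (bottom) on a log axis. Points are libraries, black lines are group means, and SA stands left of CON. In liver NDUFV2 and NDUFS1 are lower in every SA library, NDUFS8 is higher in every SA library, and NDUFV1, NDUFS3 and NDUFS7 overlap.

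By role, all 9 distal arm subunits tested, all 3 proximal arm subunits and NDUFAB1 were lower in SA livers in the deposited TPM, where 59.1% of all genes were lower. In the N module 6 of 9 were lower, and in the Q module 3 of 6, with the 1 higher member. The difference between the arms was not tested. After removal, the lower members were 3 of the 9 distal arm subunits (NDUFB5, NDUFB6 and NDUFB11), NDUFA1 of the proximal arm, 2 of the N module, 2 of the Q module, NDUFA4 and NDUFAF1. The Q module took 25.9 to 29.8% of the summed subunit TPM in SA livers, against 17.5 to 19.3% in CON livers. Its members did not shift as one. NDUFS8 alone averaged 11.4% in SA livers and 1.90% in CON livers. NDUFS3 (5.81 and 2.89%) and NDUFS7 (5.52 and 2.05%) also held more in SA livers. NDUFA9 (1.66 and 3.72%) and NDUFA5 (1.38 and 2.25%) held less. The distal arm took 31.2 to 35.5% in SA livers, against 38.9 to 40.9% in CON livers.

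The NDUFAF assembly factors are few, and their difference from the subunits was not tested. Of the 7, 3 were lower in SA livers (NDUFAF1, NDUFAF7 at -1.22 ± 0.26 and NDUFAF2 at -0.98 ± 0.19), where 59.1% of all genes were called lower. The median was -0.03 over the 7 and -1.37 over the 28 subunits. NDUFAF7 is a methyltransferase that acts during assembly. NDUFAF8, at 28.8, 16.4, 27.8 and 43.5 TPM in SA livers against 18.1, 17.1, 24.9 and 14.6 TPM in CON livers, overlapped and did not pass (0.56 ± 0.30, adjusted p = 0.129), but was called higher after removal at 1.66. NDUFAF3, which assembles the Q module, was also called higher after removal, at 1.13. The summed assembly factors after removal were 111 to 209 TPM in SA livers, against 63.5 to 114 TPM in CON livers, with a slight overlap.

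Most other respiratory genes listed were lower in SA livers too, and the mitochondrial part of complex I was higher. Among all genes tested in liver, 59.1% were called lower and 5.21% higher. The values here are from the deposited TPM, and other scales were not examined for these genes. Of 6 mitochondrially encoded complex I subunits tested, 5 were higher in SA livers, with ND2 at 2.40 ± 0.41, ND3 at 1.87 ± 0.32 and ND4 at 1.45 ± 0.33 having the smallest p. ND6 was listed at 0 in all 32 libraries. The summed mitochondrially encoded subunits were 130.4 to 457 times the summed nuclear subunits in SA livers, against 30.0 to 40.4 times in CON livers. All 4 complex II genes had lower values and 3 were called (the catalytic subunit SDHA -3.28 ± 0.25, SDHC -2.76 ± 0.26, SDHB -2.27 ± 0.35). In complex III, 6 of 7 nuclear genes were lower, led by UQCRC2 at -2.25 ± 0.20, and UQCRH was higher at 1.25 ± 0.25. Of 11 assembly factors with other names, 8 were lower, with AIFM1 (-2.53 ± 0.31), NUBPL (-1.63 ± 0.26) and TMEM126A (-1.37 ± 0.26) having the smallest p. Of 6 regulators of mitochondrial or hypoxia genes tested, 4 were lower, and the smallest p belonged to HIF1A (-1.78 ± 0.21), the hypoxia-inducible factor, ESRRA (-1.68 ± 0.25), a nuclear receptor, and GABPA (-1.12 ± 0.17), a transcription factor. The ratio of the complex I sum to the complex III sum was 3.03 to 3.75 in SA livers and 2.89 to 3.45 in CON livers, with overlap.

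**Figure D4:**
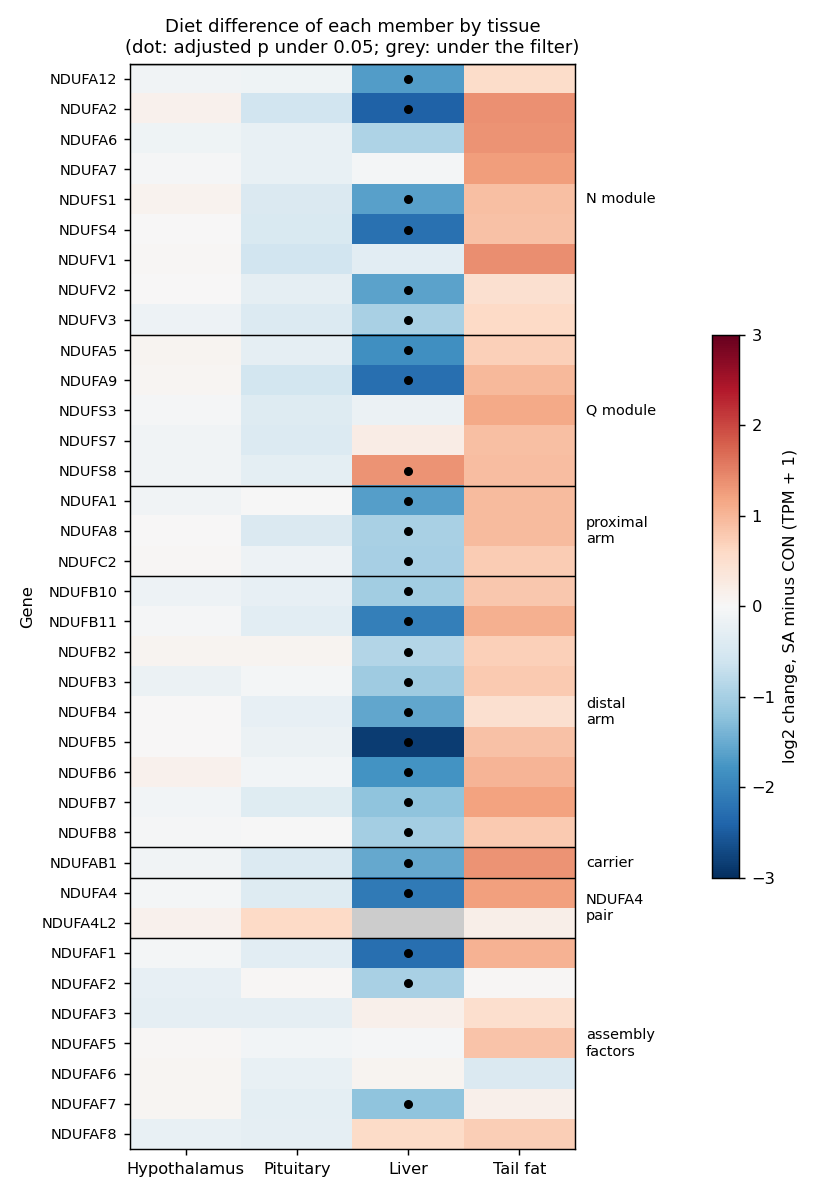
Difference between SA and CON (log2 of TPM + 1) for members in each tissue, grouped by role. Black dots mark adjusted p under 0.05 by limma, and NDUFA4L2 was under the filter in liver. In liver the called members drawn are lower except NDUFS8, which is higher, and in tail fat the members drawn are positive except NDUFAF6, with none called.

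In tail fat nearly every member had a higher value on succinic acid, but none passed the test. The difference was positive for 36 of 37 members, with a median of 0.89, against -0.06 over all genes, and 12 members and 1596 of 11185 genes had an unadjusted p under 0.05 by limma. Adjusted over all genes, 0 of 37 passed, where 0.697% of all genes were called, and the smallest adjusted p among members was 0.115. Each diet had 4 libraries, and the subunit sums given below varied widely within CON tail fat. This count of 0 therefore does not show that the members did not differ. The exception was NDUFAF6, an assembly factor, at -0.43 ± 0.49. Summed over 28 subunits, SA tail fat had 6439, 4788, 4678 and 4467 TPM, against 2797, 4318, 1582 and 2240 TPM in CON tail fat. The diets did not overlap in this sum, and CON library 2 was the highest CON library, while the mitochondrially encoded share was lowest in that library and in SA library 1 within each diet. After removal of mitochondrially encoded and ribosomal RNA the sums were 8841, 8255, 9097 and 10795 TPM in SA tail fat, against 5714, 5767, 5837 and 6155 TPM in CON tail fat.

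NDUFV1 had 442, 229.9, 289 and 360 TPM in SA tail fat, against 131, 144, 97.2 and 117 TPM in CON tail fat. Its libraries did not overlap, and it had the largest difference of the members at 1.40 ± 0.39 (adjusted p = 0.115). NDUFA6, an accessory subunit that binds the acyl carrier protein, had 296, 223, 224 and 239 TPM in SA tail fat, against 116, 151, 60.4 and 78.6 TPM in CON tail fat (1.34 ± 0.42, adjusted p = 0.158). NDUFB7, on the intermembrane space side of the distal arm, had 426, 326, 316 and 291 TPM in SA tail fat, against 162, 206, 117 and 114 TPM in CON tail fat (1.20 ± 0.39, adjusted p = 0.176). In all 3 the lowest SA library exceeded the highest CON library. That held for 7 of 37 members as deposited, where 4.63% of all genes had every SA library above every CON library. It held for 12 of 37 after removal, where the share of all genes was 3.59%, and no member had every SA library lower.

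NDUFAB1 had 348, 145, 149.8 and 163 TPM in SA tail fat, against 68.4, 172, 37.8 and 62.6 TPM in CON tail fat. SA library 1 was above all others, and CON library 2 exceeded the other 3 SA libraries. The part of the skeletal muscle markers, highest in these same 2 libraries, was not tested. The difference was 1.35 ± 0.51 (adjusted p = 0.251). NDUFA4 overlapped in the same way, with 444, 307, 247 and 145 TPM in SA tail fat, against 119.9, 331, 57.7 and 67.1 TPM in CON tail fat (1.24 ± 0.55, adjusted p = 0.331). NDUFA4L2 had 19.8, 27.0, 22.3 and 12.8 TPM in SA tail fat, against 12.5, 12.2, 18.3 and 31.8 TPM in CON tail fat, and its difference of 0.18 ± 0.46 was smaller than its error.

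Whether tail fat members passed depended on the libraries and the scaling. After removal of mitochondrially encoded and ribosomal RNA, 4 members were called higher, NDUFA2 (1.04), NDUFA6 (1.02), NDUFAB1 (1.03) and NDUFB7 (0.88), where 1.37% of all genes were higher and 9.43% lower, with a median of 0.59 over the members and -0.39 over all genes. Without SA library 1 and CON library 2 there were 6, NDUFA2, NDUFA4, NDUFA6, NDUFA7, NDUFAB1 and NDUFV1, where 2.21% of all genes were higher and 1.15% lower, with a median of 1.03 over the members. With both changes together, an alternative chosen after the data were seen, there were 3 (NDUFA2, NDUFA4 and NDUFA6), where 0.799% of all genes were higher and 2.91% lower, with a median of 0.66 over the members. Without CON library 2 alone there were 4, among them NDUFA4, NDUFA6 and NDUFAB1, where 1.7% of all genes were higher and 0.75% lower. In a joint fit of all 32 libraries 14 were called, where 4.63% of all genes were higher and 7.21% lower. Under each of these settings the median over the members was positive and no member was called lower. Adipocyte markers summed to 10731 to 60107 TPM in SA tail fat and 10967 to 74425 TPM in CON tail fat, and 0 of 6 were called. Of the complex III genes 7 of 7 were positive, with a median of 1.16, and of complex II 4 of 4, with a median of 0.87, and none was called. Of 6 mitochondrially encoded complex I subunits, 5 had negative values and none was called. The complex I sum over the complex III sum was 2.76 to 2.97 in SA tail fat and 2.72 to 3.16 in CON tail fat.

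No diet difference in complex I passed the test in the brain libraries. In hypothalamus 0 of 37 members passed and 0% of all genes were called. None of the members and 493 of 14126 genes had an unadjusted p under 0.05 by limma. The members' differences lay between -0.27 and 0.14, with a median of -0.03. The 3 smallest p among lower values belonged to NDUFB3 (-0.18 ± 0.09), NDUFAF8 (-0.21 ± 0.12) and NDUFA6 (-0.13 ± 0.09), and among higher values to NDUFB6 (0.13 ± 0.10), NDUFA2 (0.14 ± 0.12) and NDUFS1 (0.11 ± 0.12), all with adjusted p = 0.947. For 0 of 37 members were the diets separate, where 1.47% of all genes had every SA library higher and 0.496% every SA library lower. NDUFA4 averaged 174 ± 5.2 TPM in SA hypothalamus and 181 ± 25.1 TPM in CON hypothalamus, and NDUFA4L2 averaged 7.27 ± 0.24 TPM in SA and 6.71 ± 1.40 TPM in CON.

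In pituitary 0 of 37 members passed and 0% of all genes were called, and none of the members and 218 of 14472 genes had an unadjusted p under 0.05. Of the 37, 34 had lower values in SA, and the median was -0.27 over the members and -0.27 over all genes. SA library 4 had 68.8% mitochondrially encoded RNA and a subunit sum of 1578 TPM, against 2934 to 3789 TPM in the other 3 SA libraries and 3106 to 3529 TPM in CON. The same library held 3094 TPM of choroid plexus markers summed, nearly all TTR at 3081 TPM, against 10.6 to 43.6 TPM in the other 3 SA libraries and 25.6 to 468 TPM in CON. Its neuronal markers summed to 573 TPM, against 1510 to 2626 TPM in the other 3 SA libraries and 1752 to 2522 TPM in CON. All 5 neuronal markers had lower values in SA pituitary, with a median of -0.72, and none was called. Their part in the members' values was not tested. Without library 4 the members' median was -0.02. NDUFA9 (-0.55 ± 0.35), NDUFV1 (-0.57 ± 0.36) and NDUFA2 (-0.58 ± 0.39) had the smallest p among lower values. After removal of mitochondrially encoded and ribosomal RNA the diets were separate for 1 member, NDUFA8 of the proximal arm, which was lower in SA and is named after its values were seen, where 1.05% of all genes were separate with SA higher and 0.988% with SA lower. NDUFA4L2 was the largest difference in either direction, with 8.22, 8.56, 8.19 and 12.9 TPM in SA pituitary, against 2.44, 7.22, 6.89 and 8.55 TPM in CON pituitary. The diets overlapped at CON library 4, and the difference was 0.60 ± 0.33 (adjusted p = 0.747). Pericyte and smooth muscle markers, of which all 5 had higher values in SA pituitary and none was called, summed to 109.9 to 227 TPM in SA and 49.3 to 163 TPM in CON. Their part in the NDUFA4L2 values was not tested.

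The difference between SA and CON libraries in complex I members varied between tissues. In liver the diets also differed in library composition, as given above. A diet effect and a difference in how libraries were made therefore cannot be told apart there, and the tests below include those livers. The fit shares its spread across tissues, although CON tail fat libraries varied more in their subunit sum than CON hypothalamus libraries. In one fit of all 32 libraries, the interaction of diet and tissue passed in 26 of 37 members, where 27% of all genes were called. The liver effect minus the mean effect of the other 3 tissues was negative and called in 26 members and positive in 1 (NDUFS8, 1.18 ± 0.36, adjusted p = 0.0125), where 33.2% of all genes were called, 28.5% lower and 4.61% higher. The median of this difference was -1.25 over the members and -0.42 over all genes. NDUFB5 (-3.09 ± 0.58), NDUFA2 (-2.74 ± 0.45), NDUFAF1 (-2.48 ± 0.42) and NDUFA9 (-2.43 ± 0.41) had the largest, and NDUFA4 was at -2.39 ± 0.42. NDUFA4L2 showed no such difference that passed (-0.30 ± 0.33, adjusted p = 0.543). After removal of mitochondrially encoded and ribosomal RNA, 20 members passed the interaction test, where 31.2% of all genes were called. On that scale 12 members were lower and 5 higher in the liver contrast, where 8.83% of all genes were lower and 17.6% higher, and the median was -0.32 over the members and 0.12 over all genes.

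The balance among subunits, apart from their level, set the SA livers and most tail fat libraries apart. Correlations were taken across the 28 subunits of log2(TPM + 1), which share their libraries and are not independent replicates, so they are given as a description. The mean profile of SA livers had a Pearson's r of 0.58 with that of CON livers and 0.85 with that of CON tail fat. CON livers had r = 0.85 with both CON hypothalamus and CON pituitary and 0.71 with CON tail fat. Between the diets r was 0.996 in hypothalamus, 0.979 in pituitary and 0.979 in tail fat.

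**Figure D5:**
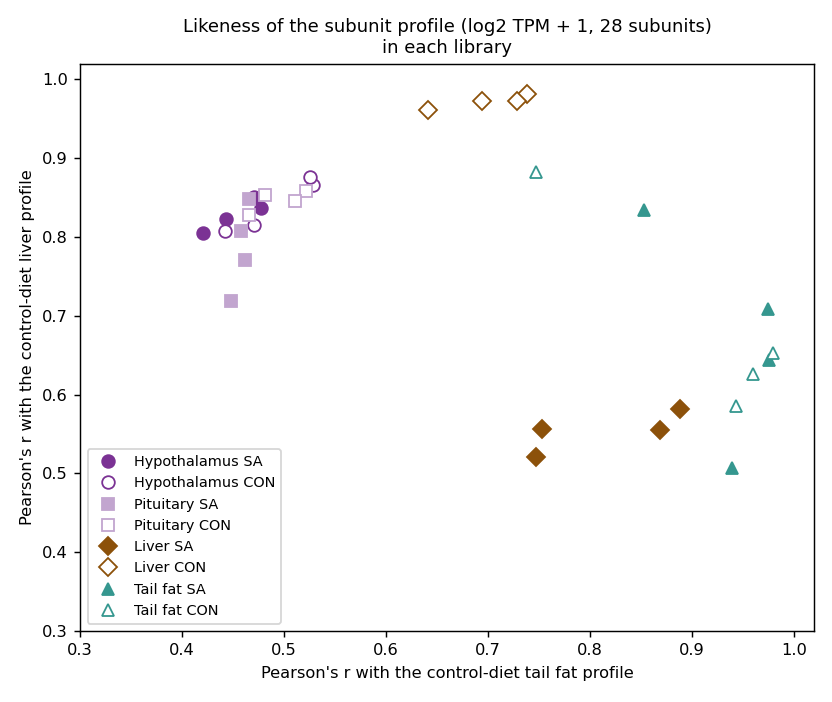
Pearson's r across 28 subunits between each library and the mean CON liver profile (vertical) or the mean CON tail fat profile (horizontal), leaving the library itself out of its own mean. Each point is 1 library, with SA filled and CON open. SA livers lie at 0.52 to 0.58 on the vertical axis while CON livers lie above 0.96, and tail fat SA library 1 and CON library 2 lie apart from the other 6 tail fat libraries.

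Library by library, the 4 SA livers had r of 0.52 to 0.58 with CON liver and 0.75 to 0.89 with CON tail fat. Tail fat SA library 1 and CON library 2 had r of 0.69 and 0.82 with CON hypothalamus, while the other 6 tail fat libraries had 0.26 to 0.44. These 2 are the tail fat libraries in which CCDC152 was near 0. NDUFS8 showed the split among tail fat libraries. It held 6.42 ± 2.90% of the subunit sum in SA tail fat, with its lowest share of 2.74% in library 1, and 7.15 ± 3.70% in CON tail fat, with its lowest share of 1.89% in library 2. NDUFB5 ran the other way, at 0.98 ± 0.42% in SA livers against 3.34 ± 0.53% in CON livers, and 6.28 ± 0.69% in SA hypothalamus against 6.16 ± 0.65% in CON hypothalamus. Comparisons of SA livers with CON livers and of CON livers with CON tail fat share the CON livers, so their values are only set side by side. NDUFS8 differed by 1.35 between SA and CON livers and by -2.11 between CON liver and CON tail fat, NDUFA7 by -0.05 and -1.84, NDUFS7 by 0.23 and -1.40, and NDUFS1 by -1.63 and 1.81.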

How the data were processed

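RNA-seq of 32 libraries was analysed from gene-level TPM (transcript abundance scaled for length and library total), which the authors deposited with 2 decimals. The submitters' processing notes name fastp, HISAT2 and RSEM without versions. The genome build is not given in the sources used here. Libraries were stranded and made from poly(A) RNA, per the labels' protocols. The deposited TPM hold no read counts, so the depth is unknown and no counting interval is given. The table's 8 columns of group means were not used.

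Differences were tested with limma 3.58.1 in R 4.3.3 on log2(TPM + 1), keeping genes that reached 1 TPM in 4 libraries of a fit, with trended, robust empirical Bayes variances. On this scale changes of low genes are understated. Tests were two-sided with Benjamini-Hochberg adjustment over all genes tested and a threshold of 0.05. Fits held the 8 libraries of a tissue for diet, the 16 CON libraries for tissues and all 32 for the interaction (an F test with 3 degrees of freedom). The study sampled 4 sheep per diet, so libraries of different tissues may share sheep, which the fits across tissues do not model. The code was tested on simulated data.

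Alternatives were a pseudocount of 0.1, no filter, quantile normalization, removal of 86 rows of mitochondrially encoded and ribosomal RNA before rescaling, a block for the library number, a joint diet fit and leaving out libraries. The members, gene lists and marker lists were chosen with earlier results of these data known. Genes named are the nuclear core subunits, NDUFA4, NDUFA4L2 and NDUFAB1, the 5 largest called changes in each direction (the 3 smallest p where fewer than 3 passed), and the highest and lowest members of a tissue, with up to 3 of each other list by smallest p. Others named were chosen after their values were seen. Values of 1 member enter the counts, medians and sums but are not reported here. Within tissues, same-numbered libraries of the SA and CON groups had residual correlations between -0.34 and 0.29, so the numbers do not pair libraries there. Between tissues, same-numbered SA hypothalamus and pituitary libraries had correlations of 0.09 to 0.34, with 3 of 4 above 0.1, and the fits across tissues treat them as independent. Analyses used Python 3.11.15, pandas 2.3.3, numpy 2.4.6 and matplotlib 3.10.9.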

Additional observations from a re-analysis of the deposited data

Results flagged for a closer look

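Of 114 groups of 4 libraries examined, 6 held a library whose gap to its nearest neighbour exceeded Dixon's 95% critical value, and chance alone picks out about 5% of groups. In tail fat, SA library 1 had a subunit sum of 6439 TPM, against 4467 to 4788 TPM in the other 3 SA libraries, and 347.8 TPM of NDUFAB1, against 145 to 163 TPM. CCDC152 was at 0.07 TPM in that library and at 148 to 186 TPM in the other 3, and the part of this in the sum was not tested. NDUFA2 was low in SA hypothalamus library 1, at 183.3 TPM against 206 to 211 TPM in the other 3, and high in CON hypothalamus library 4, at 231.0 TPM against 166 to 171 TPM. NDUFA4L2 was high in SA pituitary library 4, at 12.94 TPM against 8.19 to 8.56 TPM in the other 3, and that library also held 68.8% mitochondrially encoded RNA. NDUFA4 was low in SA liver library 2, at 15.14 TPM against 24.3 to 25.25 TPM, in the SA liver with the largest mitochondrial share, 71.0%.

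Among the members named by rule, the SA minus CON difference differed between the 4 tissues for 7 (limma F test in the fit of all 32 libraries). NDUFA4L2 and NDUFS7 did not pass, and 27% of all genes were called. The adjusted p was 0.0001891 for NDUFA4, 0.001192 for NDUFAB1, 0.004208 for NDUFV1 and 0.005645 for NDUFV2. It was 0.01359 for NDUFS1, 0.02042 for NDUFS3 and 0.01057 for NDUFS8. For NDUFS3 it rose to 0.0504 in the same test without tail fat CON library 3. NDUFA4 fell in SA livers by 2.13 on the log2 scale and had a value of 1.24 in SA tail fat that did not pass, with overlapping libraries there. NDUFV1 passed this test with no called effect in any tissue in the deposited TPM, at -0.32 in liver and 1.40 in tail fat.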

How the results depend on the processing

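Removal of mitochondrially encoded and ribosomal RNA and quantile normalization moved the most results. In liver they gave 16 and 19 members past the threshold against 27, and medians of -0.24 and -0.27 against -1.14. NDUFV1 turned to 0.77 and 0.71 there and NDUFS3 to 0.91 and 0.83, all called, and NDUFS7 was called at 1.32 and 1.23. In tail fat the count of 0 became 4 after removal, 14 in a joint fit of all 32 libraries, 6 without SA library 1 and CON library 2, 3 with both changes, and 0 to 4 when single libraries were left out. Liver against tail fat on CON gave 31 and 28 members with medians of -1.04 and -0.81, and medians of -0.62 to 0.10 without single libraries. Brain against liver and tail fat had a median of -0.041 under quantile normalization, where NDUFA4L2 turned to -0.42. Hypothalamus against pituitary gave 2 members under quantile normalization and 0 to 3 without single libraries. The liver effect against the other 3 tissues gave 17 members and a median of -0.32 after removal, and 18 members and -0.31 under quantile normalization. The cause was not tested. Over the alternatives that leave out no single library, 425 values of single members stayed on the same side of the threshold, 25 gained a call, 13 lost it and 5 reversed. With a replicate block the liver count was 25 against 27 and the count between liver and tail fat 15 against 17, and no other count of members past the threshold changed. The numbers do not pair SA with CON libraries within tissues: 4 of 16 SA libraries correlated best with the CON library of their own number. Depth is unknown, so no limit from counting is given for low members such as NDUFA4L2 in liver.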

Other observations

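NDUFA5 stood on 2 rows, and whether reads were split between them was not tested. The row not used held 33.4, 0.07, 7.40 and 24.4 TPM in SA tail fat libraries 1 to 4. ND6, the mitochondrially encoded complex I subunit on the other strand, was listed at 0 in all 32 libraries, so it could not be compared.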
